A study of Mus musculus with 8 samples.

Results

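Contacts of the telomere-proximal ends of the mouse autosomes were examined in the first cell cycle of activated B cells. A chromosome end was taken as the 50 kb bins that start in the last 5 Mb of an autosome, in the coordinates of GRCm38. This gave 1879 of the 48088 autosomal bins on 19 ends, of which 1834 of 47332 were kept after bins with much undetermined sequence or extreme coverage were left out. The assay was in situ Hi-C, which fixes nuclei, cuts their DNA and joins cut ends that lie close together, so that each sequenced read pair reports a contact between a pair of places. Splenic B cells were isolated from male C57BL/6 mice (Pep3b background), 6–12 weeks old, labelled with the dye CellTrace Violet, and cultured with 25 µg/ml of lipopolysaccharide (LPS), a bacterial product that activates B cells. Cells were sorted as activated (positive for CD69, an early activation marker) and still undivided (highest in the dye). The groups were 3 h, 10 h and 33 h of LPS (the last called imminent division) and 33 h pre-S, with 2 biological replicates each, 8 libraries in all. Pre-S cells carried the FUCCI reporters, fluorescent proteins that mark the phase of the cell cycle, and were gated as mAG- and mKO2hi, that is, before DNA synthesis. Strain and gate thus differed together with the pre-S group, and their parts cannot be told apart.

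Telomeres are arrays of a short repeat, bound by the shelterin complex, that cap the ends of linear chromosomes. Mouse autosomes have their centromere close to the start of the sequence, so the last megabases of the assembly lie at the far end of the long arm, next to the telomere. In many cell types chromosome arms are known to fold so that centromeres tend to lie near centromeres and telomere-proximal DNA near other ends. Chromatin also separates into an active A compartment and a less active B compartment, and regions of the same compartment contact each other more.

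On 18 of the 19 autosomes the defined sequence of the GRCm38 reference ran into uninterrupted telomeric repeats, from 41 bases on chromosome 9 to 535 bases on chromosome 7, followed by a terminal gap of 100000 or 150000 undetermined bases. Chromosome 4 was the exception, with 0 bases of repeat. The repeat is common to these ends, so reads from it cannot be placed on a chromosome. Pooled over the 19 autosomes, the ends held 12.12 starts of protein-coding genes per Mb (1111 in all), against 8.982 in the centromere-proximal zone from 3 to 8 Mb and 8.437 in all other autosomal bins. A minority of ends carried this mean. Only 8 of 19 ends lay above 8.437, led by chromosomes 10 (33.54), 15 (28.08), 7 (26.46) and 11 (22.22), and 11 lay below it, with the lowest on chromosomes 17 (0.6061), 18 (1.818) and 3 (2.828). The GC content of the ends was 43.79%, against 41.68% and 41.87%. Of the bins of the ends, 60.5% lay in the A compartment, compared with 40.2% of the 3 to 8 Mb zone and 45.4% of all other bins. They held all 9 Hoxc genes and 27 of 55 keratin (Krt) genes on chromosome 15, 50 of 185 variable segments of the immunoglobulin heavy chain (Ighv) on chromosome 12, and 83 of 1399 olfactory receptor (Olfr) genes, 67 of them on chromosome 10. The Olfr share, 5.93%, was close to the 5.46% of all protein-coding gene starts that lie in the ends, while zinc finger (Zfp) genes had 15 of 411 there and Wfdc genes 0 of 18.

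Libraries held 88703088 to 218945191 read pairs. Of the autosomal pairs, 70.92% to 75.06% were in cis, that is, within 1 chromosome, with the 2 imminent division libraries lowest at 71.26% and 70.92%. The second imminent division library stood apart on the sex chromosomes, with 3.741% of read ends on X and 0.04898% on Y. In the other 7 libraries these shares were 2.388% to 2.843% and 0.0804% to 0.1234%. Only autosomes were used. Values without this library are given for the measures per library and for the total counts of called pairs, and not for single pairs or for counts by distance, compartment or chromosome. Read pairs carried no molecular identifiers, and the authors removed duplicates without them before counting.

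Ends of different autosomes contacted each other more than their coverage predicts. Enrichment is the read pairs counted between a class of regions over the number expected from the interchromosomal coverage of each region, so that 1 means no preference. Between ends it was 1.217 and 1.220 after 3 h, 1.230 and 1.217 after 10 h, 1.368 and 1.347 in imminent division, then 1.221 and 1.231 in pre-S. All 8 values lay above 1, and the imminent division pair lay above the rest. Against windows of about 5 Mb from the interior of the autosomes, measured in the same library, the ends were higher in 8 of 8 libraries, by 0.28 to 0.45 on the log2 scale (p = 0.0078125, exact sign-flip permutation over libraries, two-sided, the smallest p that 8 libraries allow). Between an end and the 3 to 8 Mb zone of another autosome the enrichment was 0.828 and 0.827 after 3 h, 0.819 and 0.829 after 10 h, 0.796 and 0.802 in imminent division, then 0.852 and 0.842 in pre-S. These values were below 1 in every library with the coverage expectation, but lay between 1.13 and 1.23 when every bin pair was expected equally, so the side of 1 depends on the expectation used. Centromere-proximal zones were enriched with each other, at 1.38 to 1.43 in the 6 other libraries and 1.52 in both imminent division libraries.

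Along the contacted autosomes, the contact of the ends climbed from the centromeric to the telomeric side. In the first 5% of the length it lay between 0.809 and 0.839 in the 3 h, 10 h and pre-S libraries, and was 0.774 and 0.780 at imminent division. In the last 5% it lay between 1.221 and 1.244 in those 6 libraries, and was 1.357 and 1.335 at imminent division. The imminent division libraries were thus lower at the far side and higher at the near side, and all libraries were below 1 up to 55% of the length and above 1 beyond it.

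**Figure D1:**
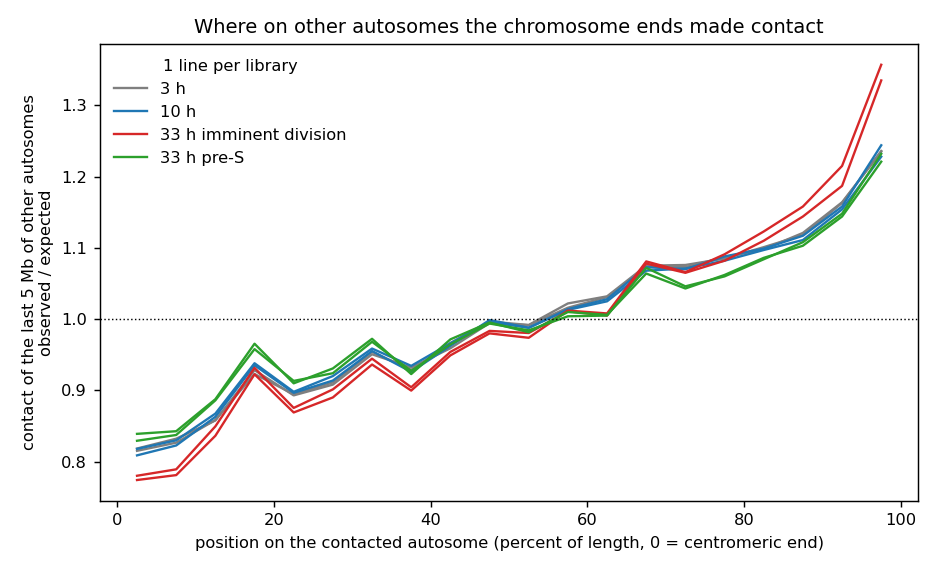
Contact of the last 5 Mb of each autosome with positions along all other autosomes (x axis, percent of chromosome length from the centromeric end) as observed over expected count (y axis), 1 line per library coloured by group. All libraries rise from about 0.8 to above 1.2, and the 2 imminent division lines start lowest (0.774 and 0.780) and end highest (1.357 and 1.335).

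The 6 measures of the ends, each with 1 value per library, were then compared across the 4 groups with an exact permutation test over all 105 assignments of the libraries, for which the smallest possible p is 0.00952. Its p is for any difference among the 4 groups, and not for imminent division against the other libraries. The imminent division libraries lay outside the range of the other 6 in 5 of the 6 measures. No measure passed 5% after Benjamini-Hochberg adjustment over the 6 measures. A measure that reaches the smallest possible p alone is adjusted to 0.0571, so it could not have passed by itself. The lack of passes is therefore not read as a lack of difference. For contact between ends, imminent division exceeded the other libraries by 0.135 (adjusted p = 0.0667 over the 4 groups, exact permutation), with a group mean of 1.358 ± 0.0145 (SD, n = 2) against 1.218 ± 0.00196 after 3 h, 1.223 ± 0.00948 at 10 h and 1.226 ± 0.00685 at pre-S. For contact with the 3 to 8 Mb zone of other autosomes the difference was -0.0336 (adjusted p = 0.0571 over the 4 groups, exact permutation). It was -0.0319 when the second 10 h library was left out. Without the second imminent division library these differences were 0.1453 and -0.03675, close to those with it.

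Interchromosomal contacts made up 29.79% and 28.66% of the contacts of the ends at 3 h, 28.04% and 28.61% after 10 h, 33.27% and 33.44% in imminent division, then 29.74% and 31.93% in pre-S. The rest of the autosomes had lower shares in each library, from 24.70% to 28.79%, and the gap was 4.84 and 4.65 percentage points at imminent division against 3.28 to 4.28 in the other libraries. Imminent division exceeded the others by 3.89 percentage points (adjusted p = 0.0571 over the 4 groups, exact permutation). When the first pre-S library was left out the difference was 3.526. The cis share over all autosomal pairs was also lowest in the imminent division libraries, and its part in this measure was not tested. Of the cis contacts of the ends, the share that stayed within the last 5 Mb was 34.75% and 34.70% after 3 h, 36.46% and 35.34% after 10 h, 42.53% and 42.29% in imminent division, then 38.68% and 37.75% in pre-S. This was the only measure with the smallest possible unadjusted p (0.00952, exact permutation, adjusted 0.0571), and its 4 groups did not overlap. The median interior window kept 29.90% to 35.44% of its cis contacts, and it too was highest at imminent division (35.44% and 35.29%), although an end has neighbours on 1 side only. Without the second imminent division library the differences of imminent division from the others were 3.806 and 6.245 percentage points for the shares of interchromosomal and of staying contacts.

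Contact within the last 5 Mb was also set against all other autosomal bin pairs at the same distance, from 100 kb to 4 Mb. The log2 ratio was 0.10 and 0.06 after 3 h, 0.10 and 0.09 after 10 h, 0.008 and 0.030 in imminent division, then -0.009 and 0.018 in pre-S. Both 33 h groups lay below both earlier groups (adjusted p = 0.0667 for any difference among the 4 groups, exact permutation). The direction of the imminent division difference, -0.0406 with 5 Mb ends, turned to 0.0988 with 2.5 Mb ends. Its adjusted p was 0.0286 (exact permutation, adjusted beside the 5 Mb p of the other measures). With 2.5 Mb ends the imminent division values were 0.030 and 0.038 and those of the other libraries -0.14 to -0.02. The range of distances was shorter there, so zone and distance changed together. With 5 Mb ends the imminent division ratios were 0.11 and 0.14 from 100 to 500 kb, and -0.025 and -0.010 from 2000 to 4000 kb. Without the second imminent division library the difference with 5 Mb ends was -0.05176. The outer and the inner parts of the last 5 Mb are described apart below.

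**Figure D2:**
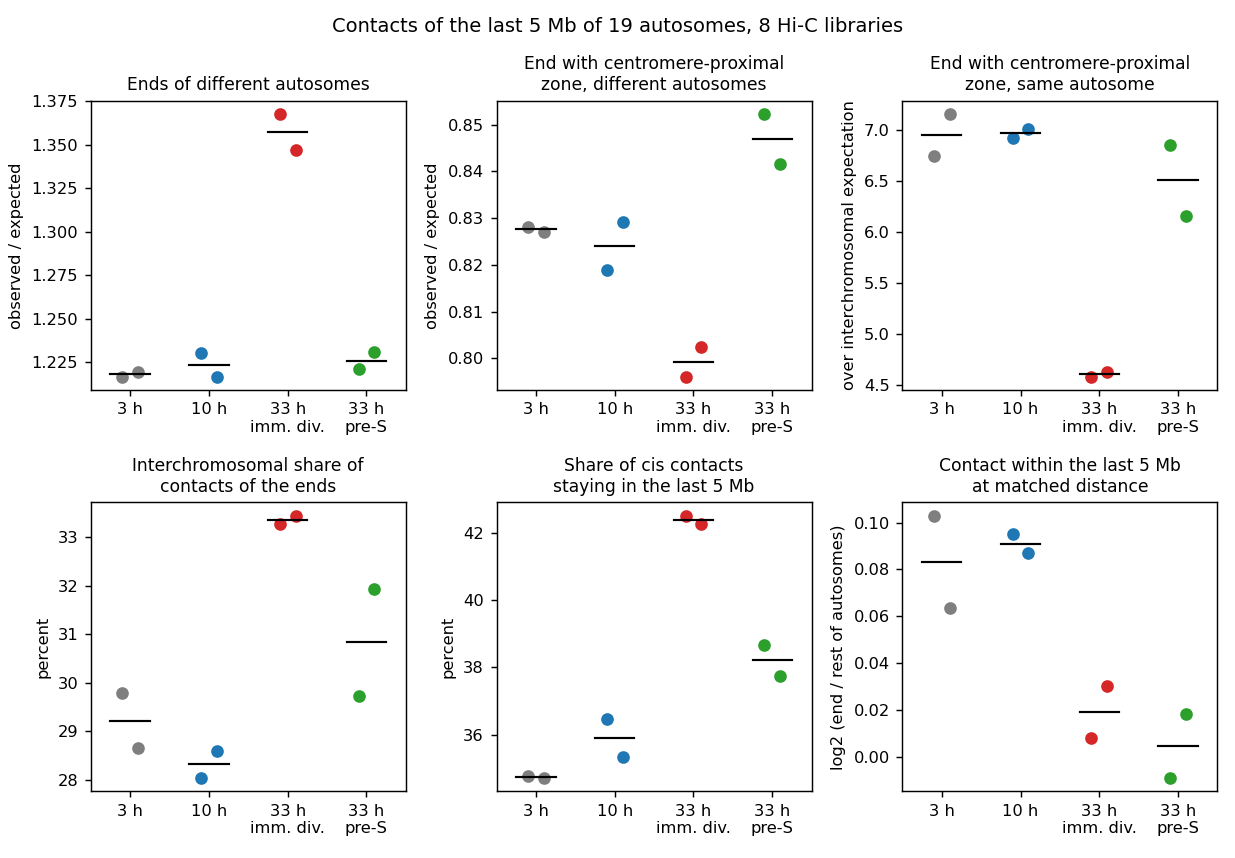
The 6 measures of the last 5 Mb of the autosomes by group (x axis), with 1 point per library and a line at the group mean. The y axes give observed over expected count (contact between ends, and of ends with the 3 to 8 Mb zone of other and of the same autosome), percent (interchromosomal share, and share of cis contacts staying within the last 5 Mb) and log2 ratio (contact at matched distance), and do not start at 0. The imminent division points lie apart from the other 6 libraries in all panels except the last, where both 33 h groups lie low.

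The preference of the ends for each other was strongest in the outermost megabase. The last 1 Mb of an autosome contacted the last 1 Mb of the others at 2.150 and 2.228 times the expectation at 3 h, 2.268 and 2.160 after 10 h, 3.217 and 3.174 in imminent division, then 2.186 and 2.268 in pre-S. From 1 to 2 Mb the values were 1.340 and 1.363 at imminent division and 1.183 to 1.214 in the other libraries, and from 4 to 5 Mb they were 1.212 and 1.206 against 1.111 to 1.201. In shells of 0.25 Mb the outermost one, of 49 bins, gave 7.878 and 8.242 after 3 h, 8.822 and 7.840 after 10 h, 11.79 and 11.96 in imminent division, then 7.096 and 7.675 in pre-S, from 287 to 1217 read pairs per library. The next shell gave 3.980 and 3.971 at imminent division and 2.284 to 2.620 in the others. In each of these shells the imminent division libraries did not overlap with the other 6. Of those, the pre-S libraries were lowest in the outermost shell, and the 3 h and 10 h libraries overlapped. Outside the ends, the shell from 15 to 16 Mb gave 1.202 and 1.197 at imminent division and 1.170 to 1.208 in the others. The shell from 18 to 19 Mb gave 1.080 and 1.094 against 1.010 to 1.101. The level from 4 to 5 Mb was thus not particular to the ends.

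Shared sequence and bin pairs of very high count were measured beside these values, and the part of shared sequence in the result was not tested. Of the 81-base windows of the outermost 0.25 Mb, 7.89% also occurred in the last 5 Mb of another autosome, against 6.222% from 0.25 to 0.5 Mb, 3.264% from 0.5 to 0.75 Mb, 3.3% from 1 to 2 Mb and 2.342% from 4 to 5 Mb. Of the 40-base windows these shares were 18.74%, 12.71%, 7.718%, 6.627% and 5.652%. When bin pairs with a pooled count over 10 and over 10 times the expectation were left out of the observed count, with the expectation unchanged, the last 1 Mb gave 2.990 and 2.960 at imminent division. The other libraries gave 1.979 to 2.077. With the last 0.5 Mb left out of the 5 Mb ends, the enrichment was 1.291 and 1.275 at imminent division and 1.180 to 1.194 in the others, and with the last 1 Mb left out it was 1.254 and 1.239 against 1.164 to 1.182. The imminent division libraries were higher in these parts too, which also hold sequence shared between ends.

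**Figure D3:**
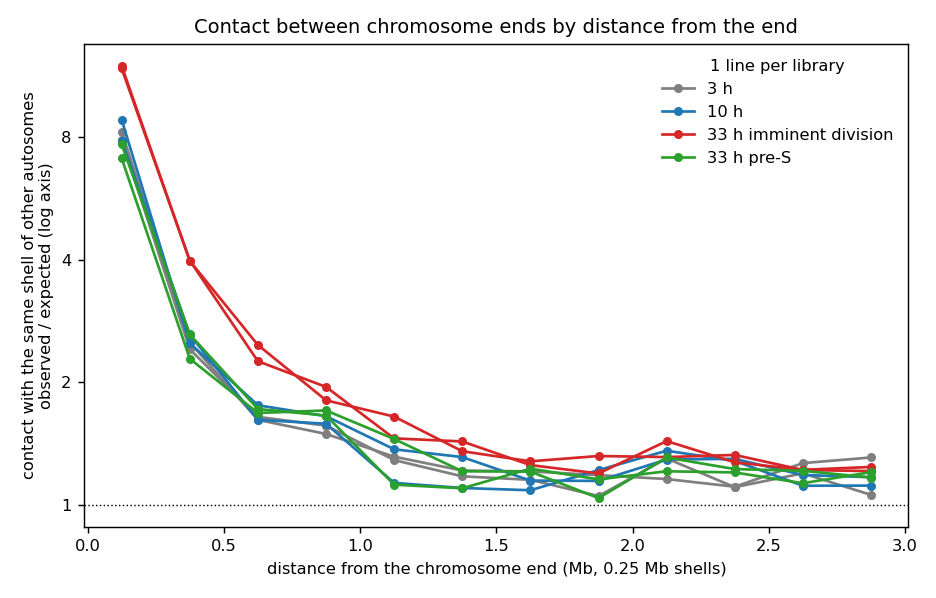
Contact between the same 0.25 Mb shell of different autosomes (y axis, observed over expected count on a log axis) by distance from the chromosome end (x axis, Mb), with 1 line per library coloured by group. All lines fall from between 7.096 and 11.96 in the outermost shell to between 1 and 2 beyond 1 Mb, and the 2 imminent division lines lie above all others out to 1.75 Mb and overlap with them farther in.

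Both compartments of the ends preferred their own kind. A bins of different ends contacted each other at 1.458 and 1.499 times the expectation at 3 h, 1.526 and 1.523 after 10 h, 1.749 and 1.675 in imminent division, then 1.670 and 1.624 in pre-S. Interior A bins contacted each other at 1.288 to 1.332 at 3 h and 10 h, 1.328 and 1.292 in imminent division, then 1.403 and 1.357 in pre-S. Between A bins of the ends, both 33 h groups were therefore above both earlier groups, while between interior A bins imminent division was not. B bins of different ends gave 1.680 to 1.914 in all libraries, with pre-S lowest at 1.680 and 1.688. Contact of A bins with B bins of other ends was 0.8197 and 0.8204 at imminent division, above 0.6763 to 0.7739 in the other libraries. Compartments were called from the cis contacts of these same libraries, pooled.

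Each pair of ends was tested in edgeR as 1 of 108307 interchromosomal window pairs, with offsets for the coverage of both windows and a false discovery rate (FDR) of 5%. There were 171 pairs of ends, all of which passed the filter on low counts. Between 10 h and 3 h, 0 pairs of ends passed in edgeR, against 0.00923% of all window pairs higher and 0.00185% lower (6 pairs of ends had an unadjusted p below 0.05, and DESeq2 also called 0). At imminent division compared with 10 h, 58 pairs rose and 9 fell, that is 33.9% and 5.26%, against 5.43% and 6.18% of all window pairs. The median log2 change was 0.11 for pairs of ends and 0.003 for all window pairs, and 117 of 171 lay above 0. At pre-S compared with 10 h, 21 pairs rose and 17 fell (12.3% and 9.94%, against 1.91% and 1.90% of all window pairs), with a median of -0.05. At imminent division compared with pre-S, 34 rose and 2 fell (19.9% and 1.17%, against 3.07% and 2.58%), with a median of 0.12 and 147 of 171 pairs above 0. All 3 comparisons with 10 h share the 10 h libraries. Ends were thus called more often than window pairs in general in both directions at pre-S, and mostly upward at imminent division. On average a pair of ends held more read pairs than a pair of interior windows in every library. The part of these higher counts in the called shares was not tested.

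These counts depended on single libraries and on the tool, each of which changed the fit of all window pairs. For imminent division versus 10 h, 39 pairs of ends passed when 10 h replicate 2 was left out, and 61 without imminent division replicate 2. The count for pre-S against 10 h was 19 or 21 when 10 h replicate 1 or 2 was left out, and 15 without pre-S replicate 1. For imminent division versus pre-S it was 17 without imminent division replicate 1, 28 without imminent division replicate 2, and 15 or 21 with only pre-S replicate 2 or 1. DESeq2 called 24, 7 and 2 of the 171 pairs of ends in these 3 comparisons, against 1.1%, 0.302% and 0.244% of all window pairs. When library size or TMM factors replaced the coverage offsets, 18 and 15 pairs rose and 47 and 49 fell at pre-S versus 10 h, so the balance of directions there depended on the scaling.

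The pairs with the smallest p were made of few chromosomes. The pair of chromosomes 9 and 11 had enrichments of 1.653 and 1.602 after 3 h, 1.684 and 1.836 after 10 h, 2.945 and 2.848 in imminent division, then 2.937 and 2.711 in pre-S. It rose by 0.71 on the log2 scale at imminent division (FDR 4.16e-26, edgeR) and by 0.68 at pre-S (FDR 3.2e-19, edgeR), with the 33 h libraries close to each other and apart from the earlier ones. The pair of chromosomes 16 and 19 went from 1.495 and 1.497 after 10 h to 2.442 and 2.256 at imminent division (log2 change 0.65, FDR 1.08e-22, edgeR), with pre-S in between at 1.812 and 1.751. The difference between imminent division and pre-S passed too, at 0.40 (FDR 6.42e-08, edgeR). The pair of chromosomes 9 and 19 rose by 0.52 at imminent division and by 0.43 at pre-S, and that of 9 and 15 rose by 0.39 at pre-S. The share of A bins in these ends ran from 53.12% on chromosome 19 to 100% on chromosome 9.

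The pairs of ends that fell with the smallest p held chromosomes 3, 9, 14 and 16. Chromosomes 3 and 9 gave 0.9496 and 0.8396 after 10 h, 0.6001 and 0.6052 in imminent division, then 0.4853 and 0.5529 in pre-S, a fall by 0.56 (FDR 1.45e-06, edgeR) and by 0.77 (FDR 2.54e-08, edgeR). Chromosomes 9 and 14 fell by 0.43 and by 0.52, and chromosomes 14 and 16 fell by 0.33 and by 0.34. The end of chromosome 3 holds 15.31% A bins and that of chromosome 14 holds 52.08%, against 100% on chromosome 9 and 89.47% on chromosome 16. The share on chromosome 14 is close to that on chromosome 19, whose pairs with chromosomes 9 and 16 rose. Between the 33 h groups, the pair of chromosomes 17 and 18, both made almost wholly of B bins, was higher at imminent division (2.615 and 2.801) than at pre-S (2.079 and 1.928), by 0.43 (FDR 6.52e-10, edgeR), while at 10 h it had been 2.389 and 2.458. Chromosomes 1 and 15 were also higher, by 0.48 (FDR 4.05e-06, edgeR). The 2 pairs that were lower, chromosomes 9 with 13 (by -0.23) and 4 with 16 (by -0.22), had smaller changes.

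Of the 342 pairs of an end and the 3 to 8 Mb zone of another autosome, 0 passed between 10 h and 3 h in edgeR (27 had an unadjusted p below 0.05, and DESeq2 called 0). At imminent division versus 10 h, 47 rose and 68 fell (13.7% and 19.9%, against 5.43% and 6.18% of all window pairs), with a median of -0.03. At pre-S versus 10 h, 27 rose and 9 fell (7.89% and 2.63%, against 1.91% and 1.90%), with a median of 0.05. At imminent division versus pre-S, 14 rose and 46 fell (4.09% and 13.5%, against 3.07% and 2.58%), with a median of -0.10. The total of 115 in the first of these comparisons dropped to 72 or 59 when 10 h replicate 1 or 2 was left out. The total of 36 in the second dropped to 17 or 18 when 10 h replicate 1 or 2 was missing, and to 13 or 22 with only pre-S replicate 2 or 1. The total of 60 in the third dropped to 36 without imminent division replicate 1, and to 31 or 35 with only pre-S replicate 2 or 1. Without imminent division replicate 2, 88 passed in the first and 40 in the third. DESeq2 called 32, 4 and 5. With library size or TMM factors in place of the coverage offsets the split turned to 23 higher with 76 and 77 lower in the first comparison, to 58 with 58 and 56 with 63 in the second, and to 6 with 69 and 7 with 64 in the third, so the mostly upward direction at pre-S depended on the scaling.

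The end of chromosome 19, the shortest autosome, lost contact with many centromere-proximal zones. With the zone of chromosome 5 its enrichment was 1.341 and 1.383 after 3 h, 1.340 and 1.409 after 10 h, 0.7775 and 0.8417 in imminent division, then 1.192 and 1.162 in pre-S. This was a fall by 0.76 on the log2 scale (FDR 5.94e-28, edgeR) at imminent division versus 10 h, and the values crossed from above to below 1. It fell by 0.73 with the zone of chromosome 6 and by 0.71 with that of chromosome 8, and compared with pre-S it was lower with the zones of chromosomes 6, 5 and 4, by -0.61, -0.54 and -0.42. In all, 15 of the pairs of this end fell and 0 rose at imminent division versus 10 h. The end of chromosome 9 followed with 14 that fell and 1 that rose, and that of chromosome 11 with 12 and 0. Among the pairs that rose, the end of chromosome 16 with the zone of chromosome 19 went from 0.8895 and 0.9083 to 1.263 and 1.217 (log2 change 0.46, FDR 4.12e-12, edgeR), the end of chromosome 3 with the zone of chromosome 6 rose by 0.65, and the end of chromosome 9 with the zone of chromosome 19 rose by 0.37. At pre-S versus 10 h the zone of chromosome 19 recurred, with rises of 0.54, 0.53 and 0.38 with the ends of chromosomes 9, 6 and 7, while the end of chromosome 19 fell by 0.36 with the zone of chromosome 8 and by 0.41 with that of chromosome 1, and the end of chromosome 9 fell by 0.56 with that of chromosome 1. Compared with pre-S, imminent division was higher for the end of chromosome 18 with the zones of chromosomes 3 and 6, by 0.31 and 0.30, and for the end of chromosome 3 with the zone of chromosome 6, by 0.43. Over the 19 ends the change in contact with these zones from 10 h to imminent division had a correlation of -0.55 (Spearman -0.65) with the share of A bins, a description whose part in the changes was not tested.

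The ends differed among themselves more than the groups did. By the mean log2 enrichment with the other 18 ends over all libraries, chromosome 2 was highest (0.73), followed by chromosomes 7 (0.54) and 4 (0.53), and chromosomes 19 (0.08), 18 (-0.15) and 17 (-0.18) were lowest. Chromosome 19 was almost level with chromosome 13 (0.09), and at imminent division its mean of 1.233 lay above those of chromosomes 3 (1.149), 14 (1.136) and 13 (1.085). Chromosome 2 had means of 1.652 ± 0.0226 after 3 h, 1.624 ± 0.0226 after 10 h, 1.764 ± 0.0191 in imminent division, then 1.595 ± 0.00354 in pre-S (SD, n = 2 each). Chromosomes 7 and 4 were close to each other and to chromosome 9, with 1.398, 1.407 and 1.333 at 3 h and 1.587, 1.524 and 1.587 at imminent division, so no order is read among them. The ends of chromosomes 17 and 18 stayed below 1 in every group, at 0.8409 to 0.9226 and 0.8713 to 0.9143. Over the 19 ends, which share libraries and each other's counts, the mean level had a correlation of 0.69 (Pearson; Spearman 0.51) with the share of A bins and of 0.70 (Spearman 0.69) with chromosome length. These are descriptions, with no p.

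At 14 of 19 ends, contact with the other ends was higher in both imminent division libraries than in all 6 others, against 13.6% of all 479 windows of the autosomes for the same contact with ends, and it was lower at 0 ends, against 40.1% of all windows. The exceptions were chromosomes 1, 3, 13, 14 and 18, where the libraries overlapped. The 3 largest changes between 10 h and imminent division were on chromosomes 19 (0.34 on the log2 scale), 11 (0.33) and 15 (0.29), whereas chromosomes 3 and 14 had -0.06 and -0.06. On chromosome 19 the mean went from 0.9403 at 3 h and 0.9748 after 10 h to 1.233 in imminent division, then 1.094 in pre-S, from below to above 1. On chromosomes 1 and 6 the 2 imminent division libraries differed from each other, with SDs of 0.1025 and 0.0735 against 0.0290 or less on the other ends. Over the 19 ends the change from 10 h to imminent division had a correlation of 0.67 (Spearman 0.76) with the share of A bins, 0.67 (Spearman 0.76) with GC content and 0.47 (Spearman 0.67) with the number of gene starts, which move with each other. For the last 1 Mb alone, both imminent division libraries were above all others at 17 of 19 ends, with chromosomes 17 and 18 the exceptions. Of the 1 Mb blocks from 5 to 30 Mb away from the end, compared with the same block of the other autosomes, 8% were above. With the 3 to 8 Mb zones of other autosomes, the imminent division libraries were above all others at 2 ends (chromosomes 3 and 14) and below at 8, against 29.4% and 19.2% of all windows.

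**Figure D4:**
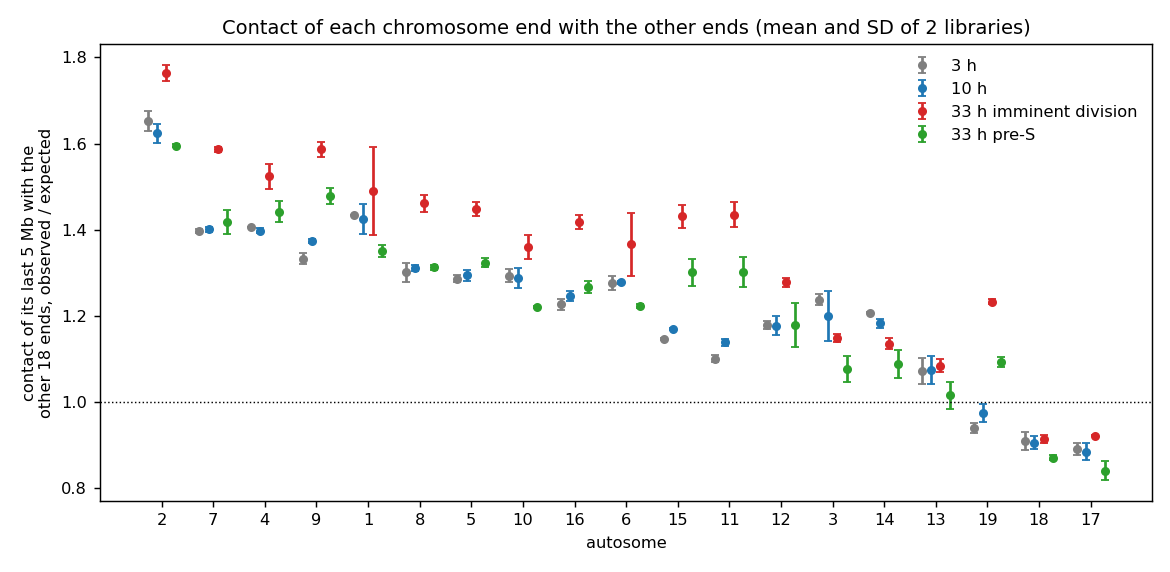
Contact of the last 5 Mb of each autosome (x axis, ordered by the mean over libraries) with the last 5 Mb of the other 18, as observed over expected count (y axis), with the mean and SD of 2 libraries per group. Chromosome 2 is highest and chromosomes 17 and 18 lie below 1, and the imminent division means stand above the other groups on most ends but not on chromosomes 3 and 14.

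The distance between the end and the centromere-proximal zone of the same autosome spans almost the whole chromosome. Contact between them, relative to the interchromosomal expectation of the same windows, was 6.751 and 7.162 after 3 h, 6.928 and 7.017 after 10 h, 4.587 and 4.631 in imminent division, then 6.857 and 6.165 in pre-S. The imminent division libraries were lower than all others, by -2.205 on average (adjusted p = 0.0667 over the 4 groups, exact permutation). Without the first pre-S library the difference was -2.089, and without the second imminent division library -2.227. They were lower than all others at 18 of 19 autosomes, with chromosome 3 the exception (means of 10.89 at 10 h and 12.02 at imminent division). The 2 largest changes were on chromosomes 11 (from 10.62 to 4.153, log2 -1.36) and 9 (from 5.660 to 2.353, log2 -1.27). This was not limited to the ends. Of all window pairs of the same autosome that lie at least 80% of its length apart, 80.8% were lower in both imminent division libraries than in the other 6, and so were 80% of the 140 such pairs that include no end. The median log2 change from 10 h to imminent division was -0.585 for the 19 pairs that hold an end and the 3 to 8 Mb zone and -0.436 for those 140.

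Within the last 5 Mb, 44323 bin pairs were tested in edgeR among 1458379 cis bin pairs of the autosomes, at an FDR of 5%. Differential interactions (DIs) are the bin pairs that passed, and stronger or weaker is relative to offsets fitted so that most bin pairs of a given abundance sit at 0. Between 10 h and 3 h there were 0 DIs within the ends, against 0.000549% stronger and 6.86e-05% weaker of all bin pairs in edgeR (2882 had an unadjusted p below 0.05, and DESeq2 called 0). At imminent division versus 10 h, 671 were stronger and 935 weaker (1.51% and 2.11%), against 0.647% and 1.40% of all bin pairs. At pre-S versus 10 h, 215 were stronger and 179 weaker (0.485% and 0.404%), against 0.349% and 0.249%. At imminent division versus pre-S, 76 were stronger and 120 weaker (0.171% and 0.271%), against 0.136% and 0.236%. The centromere-proximal 3 to 8 Mb held 307 stronger and 862 weaker of 41724 at imminent division versus 10 h, or 0.736% and 2.07%, so stronger pairs made up a larger share at the ends and weaker pairs a like share. That difference was not tested and is given for the main offsets only.

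These counts rested heavily on single libraries. Each left-out library changed the fit of all bin pairs, so a loss of calls is not read as a trait of the ends. The 1606 DIs of imminent division versus 10 h became 469 or 234 when 10 h replicate 1 or 2 was left out, and 560 or 823 with only imminent division replicate 2 or 1. The 394 of pre-S versus 10 h became 66 or 53 when 10 h replicate 1 or 2 was missing, and 31 or 109 with only pre-S replicate 2 or 1. The 196 of imminent division versus pre-S became 29 without imminent division replicate 2, and 14 or 28 with only pre-S replicate 2 or 1. DESeq2, run with the same offsets, called 3, 2 and 1 of the 44323 bin pairs within the ends (3 stronger, then 2 weaker, then 1 weaker). Of all bin pairs it called 0.00281%, 0.00843% and 0.0122%. These few calls made up a larger share at the ends in the first comparison and smaller shares in the next 2. The balance of directions between pre-S and the others depended on the scaling. With TMM factors it was 146 stronger and 453 weaker at pre-S versus 10 h and 143 and 120 at imminent division versus pre-S, and with bin coverage added to the offsets 427 and 43, and 499 and 1279. These scalings act on all bin pairs of the autosomes, so the turns are not read as a trait of the ends.

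Stronger and weaker pairs lay in different parts of the ends. Each pair was placed by the midpoint of its bins, so a pair centred in the last 1 Mb can reach farther in. The span of the pairs was not matched between shells. At imminent division versus 10 h, 371 of 4438 bin pairs centred in the last 1 Mb were stronger and 46 weaker (8.36% and 1.04%), with a median log2 change of 0.23. From 1 to 2 Mb, 170 were stronger and 132 weaker of 10323. From 2 to 3 Mb the order turned, with 62 stronger and 347 weaker of 11461, and from 4 to 5 Mb it was 31 and 191 of 6012 (0.516% and 3.18%). The same slope was weaker in the other comparisons. At pre-S versus 10 h, 49 were stronger and 10 weaker of the 4438 pairs centred in the last 1 Mb (1.1% and 0.225%, against 0.349% and 0.249% of all bin pairs). At imminent division versus pre-S, 39 were stronger and 5 weaker (0.879% and 0.113%, against 0.136% and 0.236%). With ends of 2.5 Mb the split at imminent division versus 10 h was 565 stronger and 227 weaker, and with 10 Mb 827 and 2146.

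**Figure D5:**
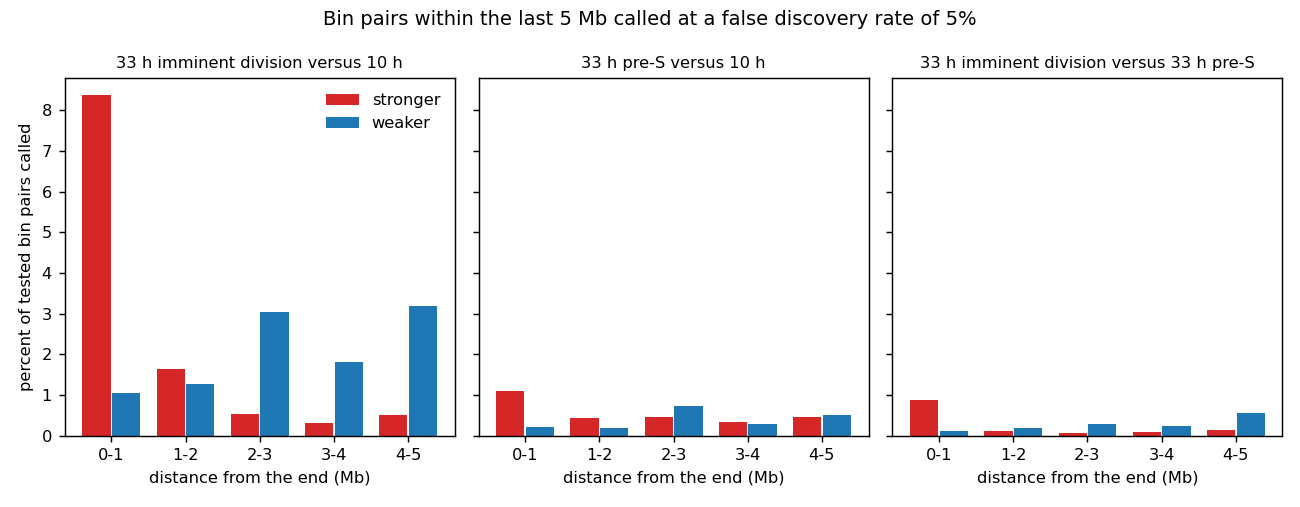
Percent of tested bin pairs within the last 5 Mb that were stronger or weaker (y axis), for 3 comparisons. The x axis gives the distance of the pair's midpoint from the chromosome end (Mb), with no matching of pair span. Of pairs centred in the last 1 Mb, 8.36% were stronger at imminent division versus 10 h, and beyond 2 Mb weaker pairs outnumbered stronger ones in that comparison.

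Counts were also split by compartment. At imminent division versus 10 h, pairs of B bins within the ends had 346 stronger and 41 weaker of 11949 (median log2 change 0.22), and pairs of A bins had 166 stronger and 834 weaker of 24575 (median -0.15). The same directions held in all other autosomal bin pairs, with medians of 0.16 for B bins and -0.14 for A bins. There 0.648% of B pairs were stronger and 0.180% weaker, against 2.90% and 0.343% in the ends, and 0.555% of A pairs were stronger and 2.89% weaker, against 0.675% and 3.39%. Of these shares, that of stronger B pairs differed most between the ends and the rest, a difference that was not tested. At pre-S versus 10 h the counts were 189 and 2 for B bins (1.58% and 0.0167%, against 0.705% and 0.0885% elsewhere) and 8 and 174 for A bins (0.0326% and 0.708%, against 0.0525% and 0.474%). Pairs that joined an A and a B bin had 105 stronger and 59 weaker of 7362 in the first comparison (1.43% and 0.801%, against 0.710% and 0.778% elsewhere), and 14 stronger and 3 weaker in the second (0.190% and 0.0407%, against 0.127% and 0.0851%). The share of A bins was 54.25% in the last 1 Mb, 51.58% from 1 to 2 Mb and 63.03% to 68.60% from 2 to 5 Mb. It did not rise between the first pair of shells, where the share of stronger pairs, placed by midpoint, went from 8.36% to 1.65%. Its part in the pattern by distance was not tested. By chromosome, the ends of 3, 13, 17 and 18 hold at most 29.03% A bins. They had 84, 49, 59 and 70 stronger pairs and 0 weaker ones at imminent division versus 10 h, of 2381, 1803, 2230 and 2357 tested. Over all bin pairs 0.647% were stronger and 1.40% weaker. Most ends with more A bins had more weaker than stronger pairs. Among them only chromosomes 8, 9 and 12 had more stronger ones. Chromosome 11 (94.90% A bins) had 19 stronger and 147 weaker of 2925, and chromosome 9 (100%) 30 and 22 of 2690. Chromosome 8 (89.58%) had 67 and 65 of 2337, and chromosome 12 (63.92%) 48 and 5 of 2380. Pairs under 200 kb apart were stronger more often (3.85% stronger, 2.03% weaker) and pairs from 1 to 2 Mb apart were weaker more often (0.297% and 1.84%), as was the case in all other autosomal bin pairs (1.90% and 1.12%, and 0.269% and 1.53%). Pairs from 200 to 500 kb apart had more stronger than weaker calls in the ends (2.92% and 2.11%) and slightly fewer elsewhere (1.12% and 1.28%), and from 500 kb to 1 Mb weaker calls were more frequent in both (0.829% and 2.82% in the ends, 0.365% and 2.04% elsewhere). These differences were not tested. Bin pairs that leave the last 5 Mb had 20 stronger and 146 weaker of 19438, that is 0.103% and 0.751%, both below the 0.647% and 1.40% of all bin pairs. Their median log2 change was lower, at -0.17, against -0.03 within the ends and 0.02 over all bin pairs. For the same pairs it was -0.16 at pre-S versus 10 h, and -0.01 at imminent division versus pre-S. Distance was not matched between these sets of pairs.

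The 3 stronger DIs with the smallest p at imminent division versus 10 h all lay in Bicd1, which encodes a cargo adaptor of the dynein motor and starts 0.3277 Mb from the end of chromosome 6. The bin with its start (chr6:149399855-149450039) and the next bin (chr6:149450036-149499849) had adjusted counts (scaled by the offsets, in units of CPM) of 0.926 and 0.986 after 3 h, 0.825 and 0.813 after 10 h, 1.726 and 1.477 in imminent division, then 1.255 and 1.473 in pre-S. This pair rose by 0.96 on the log2 scale (FDR 1.648e-09, edgeR), and both 33 h groups lay above the earlier ones. The bin with the start and the last kept bin of the chromosome (chr6:149549374-149586000) went from 29 and 41 read pairs at 10 h to 139 and 186 at imminent division, with 63 and 49 at pre-S, a rise by 1.43 (FDR 1.263e-08, edgeR). The third pair, of neighbouring bins in the gene body, rose by 0.93. Of the 31 tested pairs of the bin with the Bicd1 start, 6 were stronger and 0 weaker.

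The weaker DIs with the smallest p were on chromosomes 11 and 2. On chromosome 11, the bins with the starts of Dnah17, an axonemal dynein heavy chain, and Usp36, a deubiquitinase of the nucleolus, had adjusted CPM of 1.662 and 1.472 after 3 h, 1.633 and 2.033 after 10 h, 1.089 and 1.096 in imminent division, then 1.302 and 1.265 in pre-S. The pair fell by 0.76 (FDR 1.904e-07, edgeR), and both 33 h groups lay below both earlier ones. A bin of the Dnah17 gene body and the bin with the start of Timp2, an inhibitor of metalloproteinases, fell by 0.91. On chromosome 2, a bin of Taf4, a subunit of the general transcription factor TFIID, and the bin with the starts of Mrgbp, Ogfr and Col9a3 fell by 2.01, from 32 and 36 read pairs at 10 h to 12 and 19 at imminent division.

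At pre-S versus 10 h, the stronger DIs with the smallest p joined the bin of Eno4 and Hspa12a to that of Vax1, a homeobox factor, on chromosome 19 (rise by 0.96, FDR 1.612e-05, edgeR), neighbouring bins of Lrrc7, a synaptic scaffold protein, on chromosome 3 (rise by 0.88) and neighbouring bins of olfactory receptor genes on chromosome 10 (rise by 0.73). The Eno4 pair had adjusted CPM of 0.568 and 0.553 after 10 h, 1.099 and 1.084 at pre-S, and 0.783 and 0.905 at imminent division. The 3 weaker ones with the smallest p all lay on chromosome 8. Bins without protein-coding genes at chr8:126700532-126750073 and chr8:126850143-126900046 went from 2.203 and 2.234 after 10 h to 1.359 and 1.230 at pre-S and 1.445 and 1.547 at imminent division, and fell by 0.77 at pre-S (FDR 2.829e-07, edgeR). The others fell by 0.65 and by 0.58, the last of them between the starts of Tarbp1 and Tomm20, a receptor of mitochondrial protein import.

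Between the 33 h groups, the stronger DIs with the smallest p at imminent division reached the bin with the start of Nrp1, a co-receptor for semaphorins and VEGF, on chromosome 8 (log2 0.84, FDR 0.0004703, edgeR), the last kept bin of chromosome 11 from the bin of Ptchd3 (log2 1.27), and bins of Clybl on chromosome 14 (log2 1.04). The pair on chromosome 11, which lies 0.2077 Mb from the end, had 91 and 114 read pairs at imminent division, 36 and 23 after 10 h, and 22 and 18 at pre-S. The weaker ones lay next to the start of Cbln2 on chromosome 18 (log2 -1.04, FDR 5.72e-08, edgeR, and -0.65) and between Tmtc1 and Sinhcaf, a subunit of the Sin3 histone deacetylase complex, on chromosome 6 (log2 -1.12). For the first Cbln2 pair the adjusted CPM were 1.115 and 1.022 at pre-S, against 0.499 and 0.539 at imminent division and 0.638 and 0.701 after 10 h, so here pre-S stood apart.

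Landmark genes of the ends were read through the bin that holds their start. Each bin has few tested pairs, so its counts are a description, to be read beside the 1.51% stronger and 2.11% weaker of all pairs within the ends. Stat6, Cdk2 and Erbb3 all lie on the end of chromosome 10. That end had 57 stronger and 125 weaker of 1596 pairs at imminent division versus 10 h. Its share of weaker pairs was larger than over all ends, so the counts of these genes are not read as particular to them. Among immune genes, Stat6, the transducer of interleukin 4, had 5 weaker and 0 stronger of 42 bin pairs at imminent division versus 10 h, with a median log2 change of -0.33. The bins of Ccr9 (3 stronger of 41), of Cxcr6 (1 and 1 of 41), of the complement receptor Cr2 (1 stronger of 16) and of Cd34 (1 stronger of 37) held stronger pairs. The shared bin of Tnfrsf4 and Tnfrsf18 had 2 weaker of 29, Isg15 1 weaker of 30, Ets2 2 weaker of 48, and Mx1 0 of 48. Tnfrsf9 lay 5.594 Mb from the end of chromosome 4 and is not a member. Among genes of genome maintenance, Cdk2, the kinase that drives entry into S phase, had 8 weaker and 0 stronger of 38 (median -0.45), while the telomere helicase gene Rtel1 had 1 weaker of 39 and Brca2 1 weaker of 60. Of the imprinted genes at the end of chromosome 7, Igf2 had 2 stronger and 1 weaker of 70, H19 had 2 weaker of 61, and Ascl2, Kcnq1, Cdkn1c and Phlda2 had 1 weaker each of 73 to 78. Of the other landmarks, Erbb3 had 2 weaker of 38, Nrp1 2 weaker of 54, Sox18 2 stronger and 4 weaker of 40, and Vipr2 and Ptprn2 had 0 of 49 and 0 of 48. At pre-S versus 10 h, no landmark bin had more than 2 DIs in either direction, and Bicd1 with 2 stronger and Ascl2 with 2 weaker had the most.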

How the data were processed

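In situ Hi-C of 8 libraries was analysed from the deposited files, in which the authors give the raw counts of read pairs between 50 kb bins, made with diffHic from reads aligned to mm10 after duplicates and invalid pairs were removed. The matrices carry no coordinates, so bins were rebuilt from the MboI fragments of GRCm38 and matched the number in each file (53357). Bins with over 10% undetermined sequence or coverage beyond 4-fold of the median were left out. Gene starts were taken from GENCODE M21. The members and gene lists were chosen with earlier results of these data known.

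Autosomes were tiled into the 3 to 8 Mb zone, the last 5 Mb and interior windows of about 5 Mb. Expected interchromosomal counts were the product of the coverages of both windows. Window pairs with a mean count of at least 10, and cis bin pairs with a summed count of at least 10 and an abundance over 4-fold the interchromosomal background (prior count 2), were tested with the edgeR 4.0.16 quasi-likelihood test in R 4.3.3 (one-way layout over all 8 libraries, trended dispersion, robust), with coverage offsets and with loess offsets split at 1.5 Mb, and Benjamini-Hochberg adjustment at an FDR of 5%. DESeq2 1.42.0 was an alternative. Compartments came from the eigenvectors of the pooled cis correlation matrix at 250 kb, signed by gene starts. The 6 measures per library were compared over groups by an exact permutation test, two-sided. Alternatives changed the zones, expectations, filters, offsets and libraries. Named were the 3 highest and 3 lowest ends by mean level, the 3 window pairs and the 3 bin pairs with the smallest p per contrast and direction, and the landmark genes. Zones of 1 Mb and zones without their outer part were added after seeing the data. Replicate numbers did not pair the samples: correlations of the deviations of equally numbered libraries lay between -0.106 and 0.0068 for window pairs and between -0.0338 and 0.00869 for bin pairs, over 6 pairs of groups. The 2 replicates per group limit the precision of every SD. Certain items, a landmark bin and the sequences at the chromosome ends among them, are not reported here.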

Additional observations from a re-analysis of the deposited data

How the results depend on the processing

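Of 304 alternatives, 232 kept the direction and the side of the threshold (or, for counts, stayed within 1.5 times), and 122 of the 152 that left out 1 library did. Of the 6 measures and the comparison with the interior, 1 reversed: contact within the ends at matched distance was 0.09879 higher at imminent division with 2.5 Mb ends. That setting also used a shorter range of distances. The balance of stronger and weaker pairs also turned under some settings. For bin pairs it went from 671 and 935 to 565 and 227 with 2.5 Mb ends at imminent division versus 10 h, from 215 and 179 to 146 and 453 with TMM, 293 and 368 with 10 Mb ends and 32 and 34 without 10 h replicate 1 at pre-S versus 10 h, and from 76 and 120 to 143 and 120 with TMM and 51 and 25 with 2.5 Mb ends at imminent division versus pre-S. For pairs of ends at pre-S versus 10 h it went from 21 and 17 to 15 and 49 with TMM, 18 and 47 with library size and 29 and 50 with 10 Mb ends, and for pairs with 3 to 8 Mb zones from 27 and 9 to 56 and 63 with TMM. DESeq2's 3 and 2 bin pairs were all stronger, then all weaker. TMM, library size and the leaving out of a library act on all pairs of the autosomes, so turns under them are not read as traits of the ends. With every bin pair expected equally, the differences of imminent division from the others were 0.2118 for contact between ends and -3.492 for the same autosome, both past the threshold, as was 0.06315 for contact between ends with 10 Mb zones. Each p was adjusted beside the main p of the other measures, so passing is not a result of that setting alone. Leaving out 1 library gave 0.1247 to 0.1453, -0.03675 to -0.03045 (contact with 3 to 8 Mb zones), -2.32 to -2.089, -0.05176 to -0.02945 (matched distance), 3.526 to 4.257 and 5.939 to 6.314 (shares) and 0.3082 to 0.3322 (against interior). Counts are given as pairs of ends, pairs with 3 to 8 Mb zones and bin pairs. Leaving out 1 library gave 39 to 68, 59 to 118 and 234 to 1896 at imminent division versus 10 h, 15 to 39, 13 to 37 and 31 to 482 at pre-S versus 10 h, and 15 to 37, 31 to 62 and 14 to 263 at imminent division versus pre-S, and 0 throughout at 10 h versus 3 h. DESeq2 gave 24, 32 and 3, then 7, 4 and 2, then 2, 5 and 1. With 10 Mb zones the counts that moved were 195 and 2973, then 79, 100 and 661, then 72, 142 and 363. With 2.5 Mb zones they were 39 and 792, then 11, 6 and 155, then 10 and 76. TMM gave 2821 bin pairs, then 64, 119 and 599, then 102 pairs of ends, and library size gave 65 and 116, then 100. With a 2-fold background 685, 149 and 62 bin pairs passed, with 8-fold 613 at pre-S versus 10 h, and with coverage added to the loess offsets 4 at 10 h versus 3 h and 1778 at imminent division versus pre-S. The cause of these differences was not tested. The zones of 1 Mb (0.985, or 0.9493 without bin pairs of very high count) and the zones without the last 0.5 Mb (0.0981) or 1 Mb (0.07583) were chosen after seeing the data and kept the direction of contact between ends. The replicate number as a block gave 64, 110 and 1422, then 37, 35 and 324, then 36, 58 and 141, and moved no count by over 1.5 times. The numbers do not pair the samples. Depth limits the test of single bin pairs that hold few read pairs per library.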
